A study of Homo sapiens with 12 samples.

Results

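The IFIT and IFITM families are 2 groups of interferon-stimulated antiviral genes. Their 7 members here were IFIT1, IFIT2, IFIT3, IFIT5, IFITM1, IFITM2 and IFITM3, taken by symbol from the 25268 gene symbols measured in HEK293 cells, an established human embryonic kidney line. The families were selected on the RBMX and control values of these same libraries, so the differences between RBMX and control cells below are a description. Counts of members past a threshold in that contrast are printed beside the share of all genes, and nothing is drawn from them. The comparison of polysomal with total RNA within the same cells was not what they were chosen by, and is tested.

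Interferon-induced proteins with tetratricopeptide repeats (IFIT) bind RNA in the cytosol and hold back the translation of foreign transcripts. Interferon-induced transmembrane proteins (IFITM) sit in the plasma membrane and in endosomes, where they hinder the fusion of viral envelopes. Secreted interferons bind receptors that act through the kinases JAK1 and TYK2 on transcription factors, STAT2 and IRF9 among them, that bind the interferon-stimulated response element (ISRE) in front of both families. Several IFIT genes can also be induced by IRF3 without interferon.

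HEK293 cells were transiently transfected with pCMV6-HIS-HA-RBMX, 2 μg of plasmid from which RBMX, an RNA-binding protein, is made with a His and an HA tag, or with the mock empty vector, which GEO's labels call wild type. All 6 cultures, 3 per vector, received Lipofectamine2000 and a plasmid, and cycloheximide before lysis. The plasmid of the RBMX cultures drives RBMX from a viral promoter, and the cells that took it up were not separated from the others. Each lysate was run on a sucrose gradient. Polysomal RNA came from the fractions that hold mRNAs loaded with several ribosomes, and total RNA was made by pooling 20% of each fraction. This gave 12 libraries from 500 ng of RNA each, 3 for each of the 4 combinations of vector and fraction. The deposited values are FPKM, fragment numbers scaled for transcript length and for library size. All 7 members passed the filter used for testing, a mean of at least 0.5 FPKM over the 12 libraries, as did 14676 genes in all.

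Across the 14162 tested genes other than small RNA genes, libraries of a group correlated with a Spearman coefficient of 0.976 to 0.998. RBMX itself was at 147, 145 and 108 FPKM in control total RNA and at 1731, 2073 and 1460 FPKM in RBMX total RNA of replicates 1 to 3, higher in every RBMX culture. Plasmid and endogenous RBMX cannot be told apart in a value per gene. The 8 genes listed as HEK293 markers were at 1 FPKM or more in all 12 libraries. Their summed level was 459 and 424 FPKM in the total and polysomal libraries of control replicate 3, against 868 to 1010 FPKM in the RBMX libraries and 897 to 987 FPKM in the other control libraries. Of 8 markers of blood, endothelial and connective tissue cells, 7 were under 1 FPKM in all libraries, PTPRC, CD3E and PECAM1 among them. The other, CD14, was at 1 FPKM or more in all 12 libraries, from 1.16 to 1.99 FPKM. The number of fragments per library is not given in the sources used here, so counting error is unknown.

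The 4 IFIT genes lie together on the plus strand of chromosome 10 (GRCh38, GENCODE v29), from 89283694 to 89421001, a stretch of 137 kb. The lipase gene LIPA runs across IFIT1, IFIT2 and IFIT3 on the minus strand. The 3 IFITM genes lie within 19.9 kb of chromosome 11, from 307631 to 327537, with IFITM1 and IFITM2 on the plus strand, where their annotated spans overlap, and IFITM3 on the minus strand. The library kit named in the labels does not mark strand, so reads of LIPA, or of the antisense genes annotated across IFITM2 and IFITM3, cannot be told apart from those of the members where exons overlap. The IFITM genes are also close in sequence. The transcripts of IFITM2 and IFITM3 matched at 92.1% over 726 bases, and shared 88 runs of 50 bases and 0 of 100 bases. IFITM1 and IFITM3 matched at 79.2% over 600 bases and shared 98 runs of 50 bases and 42 of 100 bases. IFITM1 and IFITM2 matched at 76.7% over 597 bases and shared 50 runs of 50 bases and 0 of 100 bases. Fragments may thus be split between the IFITM genes, and their separate values are uncertain to that extent. No pair of IFIT transcripts shared a run of 50 bases, with an identity of 66.2% to 76.6% over the parts that aligned.

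Promoter sequences were looked up because both families are known targets of the ISRE. RefSeq promoters (GRCh38.p14), 250 bases before to 50 bases after the start, were at hand for 5 members in 6 entries, of which 2 belong to IFIT3. IFIT2 and IFITM2 had no entry. The letters GAAANNGAAA, searched on both strands, were found in all 6 entries, with 2 or 3 matches in each. Among all 35116 promoters, 3.57% held a match and 0.259% held at least 2. The match nearest to the start is printed for each entry, on the strand of the gene, with the matching letters in capitals. It lies within 122 bases before the start in all 6, and crosses the start in IFIT5 and IFITM1.
IFIT1, chr10:89392512-89392537, plus strand, 103 bases before the start: ctttccccTTTCGGTTTCcctaggtt
IFIT3, first start, chr10:89327867-89327892, plus strand, 122 bases before the start: taaattagTTTCACTTTCcagtttcc
IFIT3, second start, chr10:89332470-89332495, plus strand, 51 bases before the start: tccatcagTTTCACTTTCctttcccc
IFIT5, chr10:89414556-89414581, plus strand, 4 bases before the start: ttcttaagTTTCAGTTTCtgagcgct
IFITM1, chr11:314026-314051, plus strand, 6 bases before the start: acttctgaGAAACTGAAAcgacaggg
IFITM3, chr11:320878-320903, minus strand, 35 bases before the start: actgttgaGAAACCGAAActactggg

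In the IFIT genes every match was on the strand opposite to the gene, and in IFITM1 and IFITM3 on the strand of the gene. The letters TTCNNNGAA, the pattern of the gamma-activated sequence, were found in IFITM1 alone, where they overlapped the ISRE match at its start, and in 7.66% of all promoters. A match describes the letters in this window and is not evidence of binding.

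**Figure D1:**
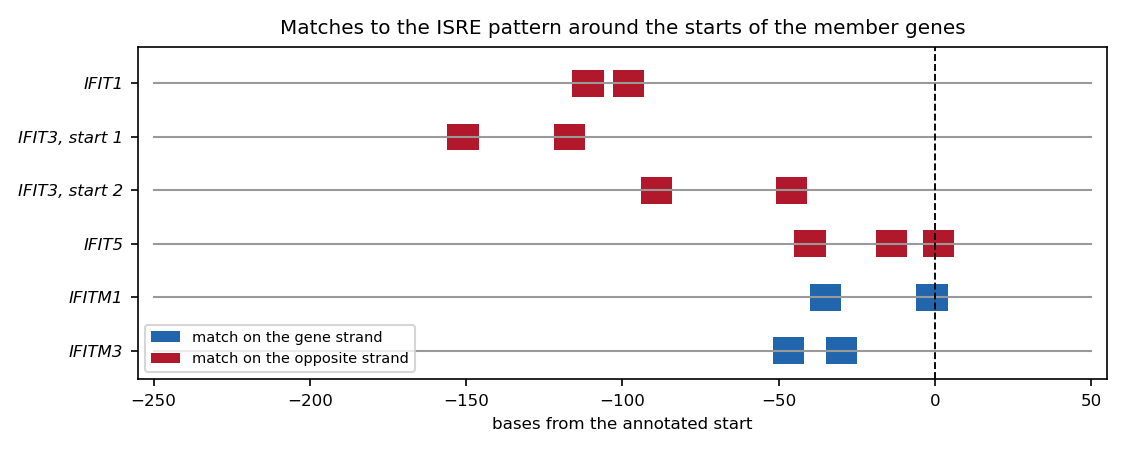
Positions of matches to the ISRE pattern (boxes) in the promoter entries of 5 members, in bases from the annotated start (dashed line), from 250 before to 50 after it. The boxes of IFIT1, IFIT3 and IFIT5 are matches on the strand opposite to the gene, those of IFITM1 and IFITM3 on the strand of the gene, and all entries hold 2 or 3.

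The first comparison was between RBMX and control cells. All 7 members were higher in all 3 RBMX libraries than in all 3 control libraries, in total and in polysomal RNA. IFIT2 stood furthest apart, by 8.22-fold in total RNA on the log2(FPKM + 1) scale, and IFIT5 and IFITM2 the least, by 1.87-fold and 2.14-fold. In bulk RNA of a transfected culture, more cells with a transcript and more transcript per cell cannot be told apart.

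IFIT1, which binds viral RNA whose cap lacks the methylation of the cell's own mRNA, was at 67.0, 78.3 and 24.9 FPKM in control total RNA and at 475, 559 and 132 FPKM in RBMX total RNA of replicates 1 to 3. Its polysomal level was 65.8, 62.7 and 19.3 FPKM in control cells and 385, 351 and 128 FPKM in RBMX cells. The lowest RBMX library therefore lay above the highest control library, and replicate 3 was the lowest library of every group. The difference on the log2(FPKM + 1) scale was 2.66 (SE 0.704, n = 3 per group) in total and 2.55 (SE 0.644) in polysomal RNA.

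IFIT2, which is linked to cell death as well as to antiviral defence, had the lowest control level of the 7 members, at 28.4, 32.4 and 13.8 FPKM in total RNA. Its level in RBMX total RNA was 331, 391 and 60.8 FPKM. In polysomal RNA it was 25.7, 25.1 and 9.68 FPKM in control and 315, 318 and 59.2 FPKM in RBMX cells. The groups did not overlap, but replicate 3 of the RBMX cells stood at 0.168 and 0.187 times the mean of replicates 1 and 2. The log2 difference was 3.04 (SE 0.787) in total and 3.22 (SE 0.775) in polysomal RNA.

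IFIT3, which binds IFIT1 and steadies it on RNA, followed IFIT1 closely. Its total RNA level was 58.0, 70.1 and 22.8 FPKM in control and 491, 569 and 128 FPKM in RBMX cells, and its polysomal level 57.1, 57.4 and 19.4 FPKM in control and 490, 452 and 129 FPKM in RBMX cells. As for IFIT1, the groups stood apart and replicate 3 was lowest in each. The log2 difference was 2.83 (SE 0.711) in total and 2.90 (SE 0.681) in polysomal RNA.

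IFIT5, which binds RNA with a free triphosphate end, was at 35.6, 40.1 and 21.0 FPKM in control total RNA and at 64.4, 74.8 and 43.0 FPKM in RBMX total RNA. In polysomal RNA it was at 34.8, 31.9 and 14.3 FPKM in control and at 63.4, 59.9 and 43.8 FPKM in RBMX cells. In total RNA the groups were separated by less than 3 FPKM, between 40.1 FPKM in control replicate 2 and 43.0 FPKM in RBMX replicate 3. The log2 difference was 0.91 (SE 0.311) in total and 1.10 (SE 0.363) in polysomal RNA, the smallest of the IFIT genes in both.

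IFITM1, found mainly at the plasma membrane, had the highest level of the 7 members in all 12 libraries. Its total RNA level was 140, 160 and 96.3 FPKM in control and 1325, 1392 and 351 FPKM in RBMX cells. In polysomal RNA it was at 154, 173 and 123 FPKM in control and at 1449, 1260 and 369 FPKM in RBMX cells. Replicate 3 was the lowest library of each group, at 0.642 and 0.751 times the mean of replicates 1 and 2 in control and 0.259 and 0.272 times in RBMX total and polysomal RNA. The log2 difference was 2.73 (SE 0.584) in total and 2.55 (SE 0.554) in polysomal RNA.

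IFITM2, an endosomal member, had the narrowest spread in control cells, with 33.2, 35.1 and 30.8 FPKM in total RNA and 35.3, 37.3 and 37.3 FPKM in polysomal RNA. In RBMX cells it was at 88.4, 96.2 and 43.3 FPKM in total and at 95.1, 103 and 47.8 FPKM in polysomal RNA. Its control polysomal libraries were the only group of any member in which replicate 3 was not the lowest. The log2 difference was 1.10 (SE 0.311) in total and 1.07 (SE 0.301) in polysomal RNA.

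IFITM3, the endosomal member best known for restricting influenza viruses, was at 99.1, 121 and 66.6 FPKM in control total RNA and at 774, 795 and 210 FPKM in RBMX total RNA. Its polysomal level was 108, 117 and 84.0 FPKM in control and 835, 859 and 230 FPKM in RBMX cells. The groups did not overlap in either fraction. The log2 difference was 2.44 (SE 0.579) in total and 2.42 (SE 0.551) in polysomal RNA. With the FPKM of the 3 IFITM genes summed before the log, so that fragments shared among them no longer matter, it was 2.50 in total and 2.39 in polysomal RNA.

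**Figure D2:**
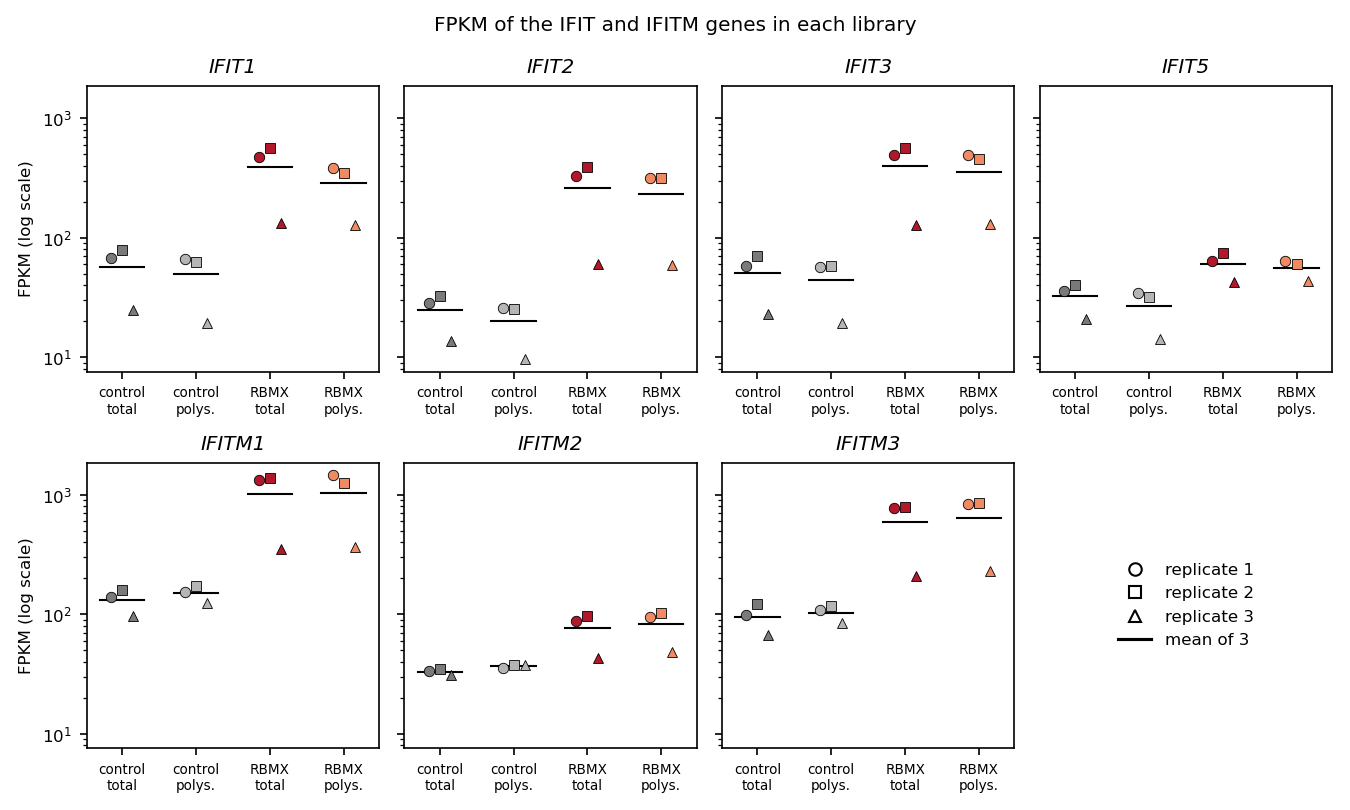
FPKM of each member (log scale) in the 3 libraries of each group, with the replicate number given by the marker and the group mean by a line. Replicate 3 (triangles) is the lowest library of each group except for IFITM2 in control polysomal RNA, and all RBMX libraries lie above all control libraries of the same fraction.

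These differences stand against the following background. All 3 RBMX libraries lay above all 3 control libraries for 11.9% of the tested genes in total RNA and for 10% in polysomal RNA, and for 7 of 7 members in both. A log2 difference of at least 1 was found for 1.82% of tested genes in total RNA, where 6 of 7 members reached it, and for 1.75% in polysomal RNA, where all 7 did. The median over the members was 2.66 in total and 2.55 in polysomal RNA, and over all tested genes 0 in both. In limma's fit over all tested genes, 0 of 7 members were under an adjusted p of 0.05 in either fraction, as against 0.164% of all tested genes in total and 0.0477% in polysomal RNA. An unadjusted p under 0.05 was given to 7 of 7 members in both fractions, and to 18.8% and 11.7% of all tested genes. Because the members were chosen with this contrast known, these shares are given without a reading.

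The number of members under the threshold in this contrast depended on replicate 3. Without the RBMX replicate 3 library, IFIT2, IFITM1, IFITM2 and IFITM3 were under it in total RNA, and IFITM1, IFITM2 and IFITM3 in polysomal RNA. Leaving out either library of another RBMX replicate, or any control library, left 0 members under the threshold. Without all replicate 3 libraries, an alternative added after replicate 3 was seen to be low, the count was 6 of 7 in total RNA, IFIT5 being the exception, and 7 of 7 in polysomal RNA, and 2.09% and 2.37% of all tested genes. These counts rest on the values that the members were chosen by, so they are no test of the members and show only how much replicate 3 weighs in the fit.

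Replicate 3 was low for the families in both kinds of cell. Relative to the mean of replicates 1 and 2, the members' level in replicate 3 was 0.343 to 0.904 in control total RNA, 0.301 to 1.03 in control polysomal RNA, 0.168 to 0.617 in RBMX total RNA and 0.187 to 0.711 in RBMX polysomal RNA. The median of the same ratio over all tested genes was 1.00 to 1.03. A ratio at or below the highest of the members was found for 32.9% of all tested genes in control total RNA, 54.2% in control polysomal RNA, 3.01% in RBMX total RNA and 6.65% in RBMX polysomal RNA, so that in control cells the least affected member was not unusual. RBMX itself was at 0.768 times the mean of replicates 1 and 2 in total and 0.859 times in polysomal RNA of the RBMX cells, and at 0.738 and 0.595 times in control cells. The low HEK293 marker sum of control replicate 3 was not seen in RBMX replicate 3, at 908 FPKM in total and 994 FPKM in polysomal RNA. That sum is led by VIM, at 508, 486 and 519 FPKM in RBMX total RNA of replicates 1 to 3. PAX2, a marker of lower level, was at 6.05, 5.11 and 3.38 FPKM there, and KRT8 at 159, 159 and 164 FPKM. The part of RBMX level, cell state or handling in the low replicate 3 was not tested.

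Dividing each RBMX library by the control library of the same number showed which members kept their ratio in replicate 3. IFIT1 was 7.09, 7.14 and 5.30 times higher in RBMX total RNA of replicates 1 to 3, and IFIT5 1.81, 1.86 and 2.05 times. IFIT3 was 8.47, 8.11 and 5.61 times higher. In total RNA, replicate 3 was the lowest library of control and RBMX cells for all 7 members, but the ratio of these 3 genes moved less than that of the others. IFIT2 went from 11.7 and 12.1 to 4.41, IFITM1 from 9.44 and 8.70 to 3.65, IFITM2 from 2.67 and 2.74 to 1.41, and IFITM3 from 7.82 and 6.58 to 3.16. In polysomal RNA the ratio was 6.63 in replicate 3 against 5.85 and 5.60 for IFIT1, and 3.00 against 9.39 and 7.27 for IFITM1. IFIT5 did not keep its ratio there, with 3.06 in replicate 3 against 1.82 and 1.87. The labels give control and RBMX cultures the same numbers without saying that these mark a shared day or batch.

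**Figure D3:**
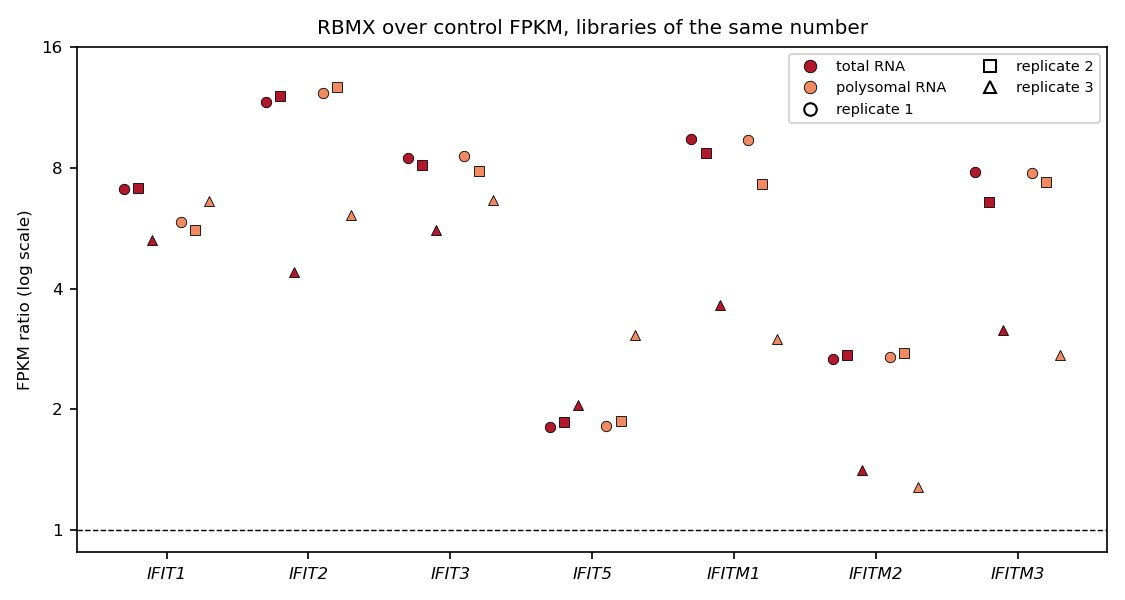
FPKM of each RBMX library divided by that of the control library of the same number (log scale), for total and polysomal RNA, with the replicate number given by the marker. All ratios are above 1 (dashed line), from 1.28 for IFITM2 to 12.7 for IFIT2. Those of IFIT2, IFIT3 and the IFITM genes are lowest in replicate 3 in both fractions.

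The make-up of each family differed between RBMX and control cells, because IFIT5 and IFITM2 differed least. IFIT5 gave 20.8% ± 4.01 (SD, n = 3) of the summed IFIT FPKM in control total RNA and 7.07% ± 4.10 in RBMX total RNA, while the sum went from 164 ± 72.5 to 1107 ± 654 FPKM. In RBMX replicate 3, where the family was lowest, its share was 11.8%, and 4.72% and 4.69% in the others. IFIT2 gave 15.5% ± 1.08 in control and 21.9% ± 4.47 in RBMX cells, with 16.7% in replicate 3 of both, so its ranges met. IFIT1 held 33.7% ± 3.04 and 35.4% ± 0.748, and IFIT3 30.0% ± 2.09 and 35.7% ± 0.420. Of the summed IFITM FPKM, which was 261 ± 61.9 in control and 1692 ± 943 in RBMX total RNA, IFITM1 gave 50.6% ± 0.883 and 59.9% ± 1.56, IFITM2 13.1% ± 2.53 and 5.14% ± 1.75, and IFITM3 36.3% ± 1.95 in control. In RBMX total RNA IFITM3 held 35.4%, 34.8% and 34.7% in replicates 1 to 3. The share of IFITM3 thus moved by less than its spread while its level differed 5.41-fold.

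In order of mean level in control total RNA, IFITM1 came first with 132 FPKM, then IFITM3, IFIT1, IFIT3, IFITM2, IFIT5 and IFIT2 with 24.8 FPKM. The ranges of all neighbours in this order overlapped. IFIT3 was above IFITM2 in 2 of 3 libraries and IFITM2 above IFIT5 in 1 of 3, so these are not ordered, whereas the other neighbours kept their order in 3 of 3 libraries. In control polysomal RNA the order was the same, and the ranges of IFITM1 and IFITM3, of IFITM3 and IFIT1, and of IFITM2 and IFIT5 did not overlap. In RBMX total RNA the order was IFITM1 with 1023 FPKM, IFITM3, IFIT3, IFIT1, IFIT2, IFITM2 and IFIT5 with 60.7 FPKM. IFIT2 had moved from the last place to the fifth, above IFITM2 and IFIT5, in 3 of 3 libraries. IFIT3 and IFIT1 were in this order in 2 of 3 libraries of RBMX total RNA and in 3 of 3 of RBMX polysomal RNA. The other neighbours kept their order in each RBMX library, although the low replicate 3 made their ranges overlap.

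The second comparison asked whether the members were more or less abundant in polysomal than in total RNA of the same cells. No member differed past the threshold. The IFIT genes lay mostly below, and the IFITM genes mostly above, an equal level. Within control cultures the polysomal to total ratio of the 4 IFIT genes was 0.681 to 0.985, below 1 in all 12 pairs of libraries. For the 3 IFITM genes it was 0.965 to 1.28, above 1 in 8 of 9 pairs. In RBMX cells it was 0.628 to 1.02 for the IFIT genes, above 1 in 2 of 12 pairs. For the IFITM genes it was 0.905 to 1.10, above 1 in 8 of 9. The share of all tested genes with such ratios was not computed. With the fractions paired, 21% of all tested genes in control and 21.9% in RBMX cells had an unadjusted limma p under 0.05. By the extraction protocol pairs of 1 culture share a lysate, and members of a family share their libraries, so the counts of pairs are not of independent values. The pairing rests on the labelled numbers. Deviations of total and polysomal RNA from their group means correlated with 0.230 and 0.0208 in RBMX replicates 1 and 2. The correlation was 0.684 in RBMX replicate 3 and 0.618 to 0.847 in control cultures.

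Among the IFIT genes, IFIT2 had the lowest mean log2 difference in control cells, at -0.32 (SE 0.491), with ratios of 0.905, 0.775 and 0.704 in cultures 1 to 3. In limma's test, which did not pair the fractions of a culture, its adjusted p was 0.959. With them paired, the SE was 0.0803 and limma's adjusted p 0.197. IFIT5 had ratios of 0.976, 0.796 and 0.681 in control cells and of 0.985, 0.800 and 1.02 in RBMX cells, where the direction varied from culture to culture. IFIT1 was below 1 in 3 of 3 cultures of both kinds, with 0.982, 0.801 and 0.776 in control and 0.810, 0.628 and 0.971 in RBMX cells, and a log2 difference of -0.23 (SE 0.651, limma adjusted p = 0.996) and -0.34 (SE 0.707, adjusted p = 0.81). With the fractions paired, the SE of IFIT1 was 0.0834 in control and 0.153 in RBMX cells. Its limma adjusted p was then 0.248 and 0.276. IFIT3 was at 0.985, 0.820 and 0.850 in control cells. In RBMX cells it was at 0.998, 0.795 and 1.01, close to an equal level in 2 cultures.

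Among the IFITM genes, IFITM2 was above 1 in 3 of 3 cultures of both kinds, with 1.06, 1.06 and 1.21 in control and 1.08, 1.07 and 1.10 in RBMX cells. Its log2 difference of 0.15 (SE 0.0679) in control cells had an adjusted p of 0.653 in limma's unpaired test. With the fractions paired, limma's adjusted p was 0.261 (SE 0.0562). IFITM1 had ratios of 1.10, 1.08 and 1.28 in control cells and of 1.09, 0.905 and 1.05 in RBMX cells. IFITM3 had ratios of 1.09, 0.965 and 1.26 in control cells and of 1.08, 1.08 and 1.09 in RBMX cells, within a narrow range in the latter although its total RNA level there ran from 210 to 795 FPKM.

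Over all members, 0 of 7 passed an adjusted p of 0.05 in control cells, where 0.0818% of all tested genes passed, and 0 of 7 in RBMX cells, where 1.34% passed. No member had an unadjusted p under 0.05 in either. Without pairing, limma's adjusted p of the members ranged from 0.653 to 0.999 in control cells and from 0.81 to 0.998 in RBMX cells. That fit takes the low replicate 3 as spread within each group. With pairing, limma's range was 0.197 to 0.451 in control and 0.24 to 0.947 in RBMX cells. With the 2 fractions of a culture paired, IFIT2 and IFITM1 had an unadjusted p under 0.05 in control cells, at 0.0193 and 0.0478 by limma, and an adjusted p of 0.197 and 0.235. In that fit 21% of all tested genes had an unadjusted p under 0.05. On quantile-normalized values the differences of IFIT1, IFIT2 and IFIT3 in RBMX cells turned positive, at 0.05, 0.17 and 0.29 on the log2 scale, so their direction there depends on the scaling. The same scaling took IFITM1 from 0.02 to 0.68 and IFITM3 from 0.12 to 0.64 in RBMX cells. Those of the 4 IFIT genes in control cells stayed negative.

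**Figure D4:**
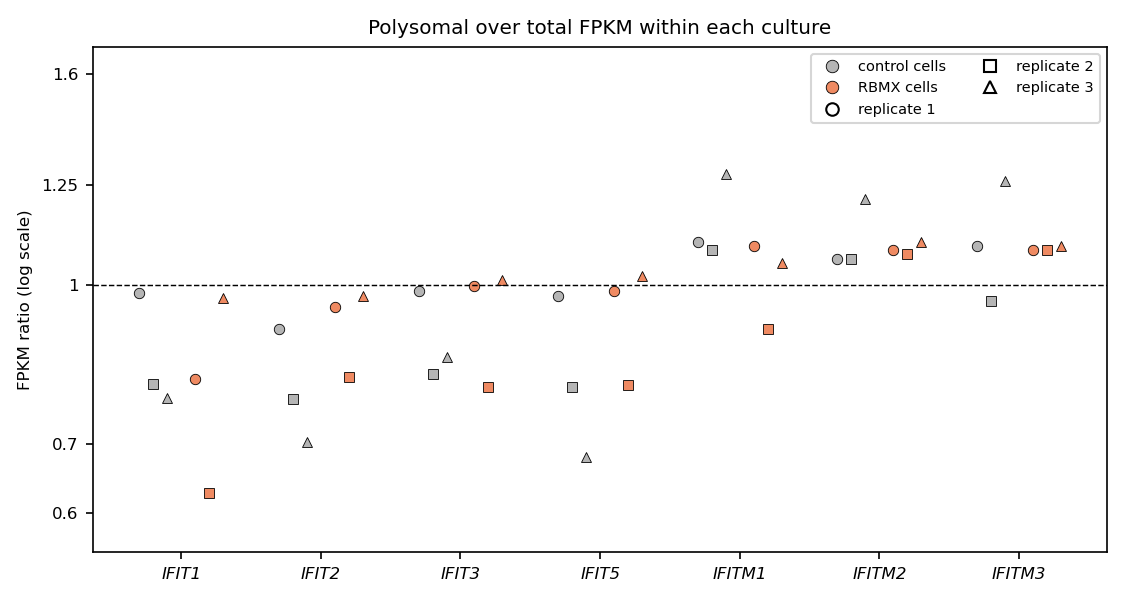
Polysomal FPKM divided by total FPKM of the same culture (log scale) for each member, in control and RBMX cells, with the replicate number given by the marker. The ratios run from 0.628 to 1.28. Those of the IFIT genes lie mostly under 1 (dashed line) and those of the IFITM genes mostly above it. No member passed the test, and the share of all tested genes with such ratios was not computed.

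The third comparison was whether the difference between RBMX and control cells was itself larger or smaller in polysomal than in total RNA. It is built from the RBMX and control values that the members were chosen by, so its test results are given as a description. The log2 difference of the polysomal and total effects was -0.11 (SE 1.02) for IFIT1, 0.18 (SE 1.18) for IFIT2, 0.07 (SE 1.05) for IFIT3 and 0.19 (SE 0.508) for IFIT5. For the IFITM genes it was -0.18 (SE 0.856) for IFITM1, -0.03 (SE 0.460) for IFITM2 and -0.02 (SE 0.851) for IFITM3. Members thus had both signs, and 0 of 7 passed limma's test of the difference over all 12 libraries, with an adjusted p of 1 for each. No member had an unadjusted p under 0.05, and 0.0204% of all tested genes passed. The standard errors include the low replicate 3 as spread within each group, and were 0.0722 to 0.183 when the 2 fractions of a culture were paired, with an adjusted p of 1 for each member again. Differences within these errors were not detectable.

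The pathway that leads to the families was followed from its ligands to its targets, from lists chosen with earlier results of these data known. No gene of these lists passed an adjusted p of 0.05 between RBMX and control cells in either fraction, and the values are a description like those of the members. With the replicate number as a block, HERC5, a ligase for ISG15, had an adjusted p of 0.0489 in total RNA by limma. By limma it was 0.12 in polysomal RNA with the block, and 0.234 in total RNA without it. The block fit of total RNA called 13 of 14676 tested genes. RBMX and control cultures share only a number, so nothing is drawn from this call. Of 16 tested genes for interferon ligands, receptors and signalling, 5 had a log2 difference of at least 1 in total RNA and 6 in polysomal RNA. Among all tested genes the shares were 1.82% and 1.75%. The median of the list was 0.24 and 0.21. The ligands had the largest differences. IFNL1, a type III interferon, was at 1.49, 1.06 and 1.13 FPKM in control and at 30.2, 32.5 and 4.33 FPKM in RBMX total RNA. IFNB1, which encodes interferon beta, was at 1.22, 0.867 and 0.813 FPKM in control and at 19.2, 22.1 and 3.19 FPKM in RBMX total RNA. Replicate 3 of the RBMX cells was again the lowest, at 0.138 and 0.155 times the mean of replicates 1 and 2. IFNL3 and IFNL2, 2 near-identical genes whose reads may be split between them, had log2 differences of 2.24 (SE 0.518) and 2.04 (SE 0.515) in total RNA.

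The receptor subunits, by contrast, differed little in total RNA. Their log2 differences were -0.18 for IFNAR1, -0.05 for IFNAR2, -0.03 for IFNLR1 and -0.03 for IL10RB. IRF9 was at 33.7, 30.1 and 25.4 FPKM in control and at 66.4, 66.0 and 42.4 FPKM in RBMX total RNA. STAT2 did not share the low control replicate 3 of the members, with 15.6, 14.2 and 19.8 FPKM in control and 65.8, 64.6 and 23.7 FPKM in RBMX total RNA. These receptor and transcription factor genes, which the list holds but which are not among its 4 largest differences, were chosen for naming after their values were seen.

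Of 11 tested sensors and inducing factors, 6 had a log2 difference of at least 1 in either fraction. Of all tested genes, 1.82% reached it in total and 1.75% in polysomal RNA. The median of the list was 1.08 in total and 1.18 in polysomal RNA. The largest were the RNA sensors DHX58 with 2.36 (SE 0.536), DDX58 with 1.84 (SE 0.450) and IFIH1 with 1.67 (SE 0.450), and the transcription factor IRF7 with 1.42 (SE 0.344). The tested genes of this list that did not reach 1 in either fraction were MAVS, TMEM173, TBK1, IKBKE and IRF3. Their log2 differences in total RNA were -0.05, 0.27, 0.11, 0.15 and 0.31. Among 5 feedback regulators the median was 0.88 in total RNA. ISG15, a ubiquitin-like modifier, had a difference of 2.10 (SE 0.487) and USP18, which removes it from proteins, of 1.67 (SE 0.352), while SOCS1 and SOCS3, inhibitors of the receptor kinases, had 0.88 (SE 0.148) and 0.50 (SE 0.113). Of 30 other interferon-stimulated genes, 28 reached a log2 difference of 1 in total and 28 in polysomal RNA, and 29 and 30 had all RBMX libraries above all control libraries, where the shares of all tested genes are those given above for the members. Their median was 1.85 in total and 1.93 in polysomal RNA, and the highest were OAS2 with 3.64 (SE 0.849), which makes an activator of RNase L, RSAD2 with 3.32 (SE 0.854), XAF1 with 3.29 (SE 0.934) and TRIM22 with 3.03 (SE 0.765).

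The chromosomal neighbours of the families are described by the same measures. A log2 difference of at least 1 was found for 1.82% of all tested genes in total and 1.75% in polysomal RNA. A count of 0 among so few genes is therefore not unusual. Of 6 tested genes beside the IFIT genes, 0 reached a log2 difference of 1 in either fraction, with a median of 0.11 in total and 0.20 in polysomal RNA and the highest at 0.48 (SE 0.238) for LIPA. LIPA, which overlaps IFIT1, IFIT2 and IFIT3 on the other strand, was at 21.4, 18.4 and 11.7 FPKM in control and at 25.2, 26.6 and 19.8 FPKM in RBMX total RNA. FAS, the death receptor gene, had 0.32 (SE 0.117), and ACTA2 and STAMBPL1 0.13 (SE 0.192) and 0.09 (SE 0.0772). Of 11 tested genes beside the IFITM genes, 0 reached 1, with a median of 0.18 in total RNA and 0.42 (SE 0.246) for ATHL1, 0.36 (SE 0.312) for RNH1, 0.31 (SE 0.101) for B4GALNT4 and 0.27 (SE 0.129) for PSMD13. Beside the IFIT genes, all RBMX libraries lay above all control libraries for 1 gene in total and 2 in polysomal RNA, FAS in both. They lay below for 1 and 0. Beside the IFITM genes, 4 and 3 lay above, and 0 and 1 below. Of all tested genes, 11.9% and 10% lay above. Genes for partners of the IFITM proteins had differences of either sign. ZDHHC20, a palmitoyl transferase that modifies IFITM3, had -0.36 (SE 0.117) in total and -0.34 (SE 0.135) in polysomal RNA. In total RNA the ubiquitin ligase gene NEDD4 had -0.17 (SE 0.138), VAPA -0.10 (SE 0.0806) and the protease gene ZMPSTE24 0.09 (SE 0.127).

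**Figure D5:**
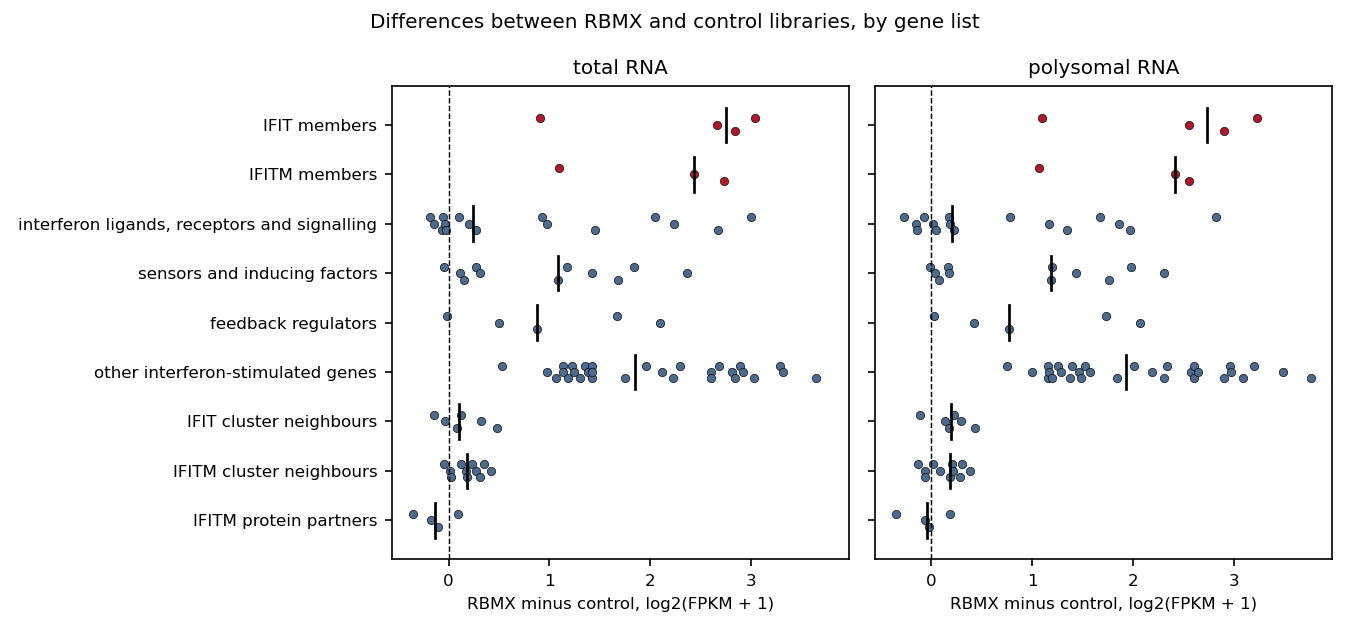
Log2(FPKM + 1) difference between RBMX and control libraries for the members (top rows) and for the tested genes of 7 lists, in total and polysomal RNA, where a point is a gene and a black bar the median of its row. The medians of the 2 lists of chromosomal neighbours are between 0.11 and 0.20, and that of the other interferon-stimulated genes is 1.85 in total and 1.93 in polysomal RNA.

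Other members of the families were at the edge of detection. IFIT1B had a mean of 0.0390 FPKM in control and 0.164 FPKM in RBMX total RNA, IFITM4P, a pseudogene, 0.334 and 0.564 FPKM, IFITM5, the bone-specific member, 0.0471 and 0.0179 FPKM, and IFITM10 0.241 and 0.348 FPKM. None of these 4 passed the filter, so they were not tested. IFIT1P1 is not analysed here.

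Over the 12 libraries, the genes most like each family were taken by Pearson's r with the mean standardised profile of its members, as a description. For the IFIT genes these were PARP9 and DTX3L, which form a complex in the response to DNA damage and interferon, and PLSCR1, each with r = 0.996, OAS1 with 0.994 and SAMD9 with 0.993. For the IFITM genes they were BST2, which tethers budding virions, and UBE2L6, the conjugating enzyme for ISG15, each with 0.998, ISG15 with 0.996, DNPEP with 0.995 and OAS2 with 0.994. The 12 libraries fall into RBMX and control groups with a low replicate 3 in each, so all genes with that pattern give a high r, and 1.82% and 1.77% of tested genes reached 0.9 with the IFIT and the IFITM profile. The 2 profiles had an r of 0.947 with each other. Similar profiles did not mean differences of similar size. PARP9 had a log2 difference of 1.23 and DNPEP, an aminopeptidase gene, of 0.46 in total RNA, where IFIT1 had 2.66 and IFITM1 2.73.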

How the data were processed

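The authors deposited 1 table of FPKM values per gene symbol and library. GEO's labels link its columns to 12 libraries, and 0 columns were left out. The submitters' processing notes name CASAVA 1.8, TopHat2 2.0.13, Cufflinks 2.2.1, Cuffnorm and the build hg19, whereas the paper's methods describe an alignment to hg38; the build behind the FPKM values is therefore uncertain, and coordinates here are from GENCODE v29 and RefSeq on GRCh38. FPKM values are not counts, so limma 3.58.1 in R 4.3.3 (lmFit, eBayes with an intensity trend) was applied to log2(FPKM + 1). The 14676 genes with a mean of at least 0.5 FPKM were tested and their p-values adjusted together (Benjamini-Hochberg, threshold 0.05). A fold on this scale understates the change of low genes. Fits used the 6 libraries of a comparison, and all 12 for the difference of effects.

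The members and lists were chosen with earlier results of these data known. Genes named are the 7 members, other family members, RBMX, in each list the 4 tested genes with the largest mean difference over both fractions, and the 5 genes most like each family. Receptor subunits, IRF9, STAT2, HERC5, MAVS, TMEM173, TBK1, IKBKE, IRF3 and 3 markers of other cells were named after their values were seen. Identity of transcripts came from BLAST 2.17.0 and plots from matplotlib 3.10.9 in Python 3.11.15. The fits were checked on simulated data with independent values for each gene and library. These had no shared low replicate 3 and no link between the fractions of a culture, so the check does not cover those features. One gene of the lists is not reported here. A group of 3 against 3 allows no exact permutation p under 0.1.

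Per the extraction protocol, total RNA was pooled from the fractions of the gradient, which pairs it with the polysomal RNA of the same number, although the treatment protocol also speaks of 2 dishes. Across the 14162 tested genes other than 514 small RNA genes, their deviations from the group means correlated with 0.618, 0.718 and 0.847 in control and 0.230, 0.0208 and 0.684 in RBMX cultures 1 to 3. RBMX total replicate 1 correlated best with polysomal replicate 2, RBMX total replicate 2 with polysomal replicate 1, and control total replicate 1 with polysomal replicate 2, so ratios and fits within a culture rest on the labelled numbers. Other settings tried were quantile normalization or median-ratio rescaling, a pseudocount of 0.1, a filter at 0.1 or 1 FPKM or none, no intensity trend, a replicate block, a single fit of all 12 libraries, summed IFITM values and each replicate left out.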

Additional observations from a re-analysis of the deposited data

How the results depend on the processing

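The counts of members past the threshold, 0 of 7 in every comparison, kept that value under every alternative except when libraries were left out. For RBMX against control, leaving out 1 library gave at most 4 in total and 3 in polysomal RNA, both without RBMX replicate 3. Leaving out all replicate 3 libraries gave 6 and 7, so that the range was 0 to 6 in total and 0 to 7 in polysomal RNA. The count stayed at 0 for polysomal against total RNA and for the difference of effects. With the replicate block, 0 members passed in all 5 comparisons and no call of a member changed. Of the listed genes, 1 call was gained, that of HERC5 in total RNA. RBMX and control cultures share only a number, and their deviations correlated with 0.347, -0.0433 and 0.0234 in total and -0.160, 0.0277 and 0.0737 in polysomal RNA. Under that block the adjusted p of the members in RBMX against control by limma went down to 0.0721 in total and 0.087 in polysomal RNA, and the genes called over all tested went from 24 to 13 in total RNA, 7 to 3 in polysomal RNA, 12 to 6 for polysomal against total RNA in control cells, 196 to 4 in RBMX cells and 3 to 5 for the difference of effects.

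The sign of single members between RBMX and control cells held under all alternatives. Quantile normalization turned the polysomal to total difference of IFIT1, IFIT2 and IFIT3 in RBMX cells to 0.0533, 0.17 and 0.29, and the difference of effects of IFIT1, IFITM1, IFITM2 and IFITM3 to 0.26, 0.46, 0.0383 and 0.44. It moved the median of all tested genes by less than 0.1, and the cause was not tested. Leaving out 1 library, or all of replicate 3, gave log2 ranges across 0. For polysomal against total RNA in control cells these were -0.73 to 0.33 for IFIT1, -0.68 to 0.11 for IFIT2, -0.66 to 0.33 for IFIT3, -0.57 to 0.10 for IFIT5, -0.0113 to 0.35 for IFITM1 and -0.10 to 0.32 for IFITM3. In RBMX cells they were -0.99 to 0.17 for IFIT1, -0.98 to 0.66 for IFIT2, -0.79 to 0.51 for IFIT3, -0.33 to 0.0631 for IFIT5, -0.63 to 0.64 for IFITM1, -0.24 to 0.46 for IFITM2 and -0.52 to 0.74 for IFITM3. For the difference of effects they were -0.76 to 0.40 for IFIT1, -0.66 to 0.99 for IFIT2, -0.61 to 0.69 for IFIT3, -0.20 to 0.46 for IFIT5, -0.83 to 0.44 for IFITM1, -0.39 to 0.31 for IFITM2 and -0.65 to 0.61 for IFITM3. Leaving out 1 library breaks a pair of fractions.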
